A study of Homo sapiens with 18 samples.

Results

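The MHC class II genes and their regulators were taken as 10 listed genes out of 19974 protein-coding genes on chromosomes 1 to 22 and X: HLA-DRA, HLA-DRB1, HLA-DPA1, HLA-DPB1, HLA-DQA1, HLA-DQB1, HLA-DMA, HLA-DMB, CIITA and CD74. All 10 were found in the gene table, and the list was drawn up by name, with no threshold on measured values. They were followed in chromatin immunoprecipitation sequencing of U937, a monocytic line established from a human myeloid malignancy and labelled as acute myeloid leukaemia. SUV39H1 SKO cells lack SUV39H1, SUV39H1/2 DKO cells lack SUV39H1 and SUV39H2, and sgControl cells carry a control guide; all are U937. SUV39H1 and SUV39H2 are methyltransferases that write H3K9me3. H3K9me3 and H3K27me3 were each profiled in 2 libraries per genotype, and SETDB1, another H3K9 methyltransferase, in 2 libraries of wild-type (WT) U937. The labels do not say that replicates were separate cultures, nor whether knockout lines were clones or pools, so the spread between libraries may be technical.

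MHC class II molecules present peptides from the endosomal pathway to CD4+ T cells. An alpha and a beta chain form each surface molecule (HLA-DR, HLA-DQ, HLA-DP), CD74 (the invariant chain) guards the peptide groove during assembly, and HLA-DM exchanges the CD74 remnant for peptide. CIITA is the coactivator that switches the whole set on, through factors bound to the X and Y boxes of class II promoters. In monocytic cells the genes are inducible by interferon gamma. H3K27me3 is the Polycomb mark and H3K9me3 the mark of classical heterochromatin. These files hold neither RNA nor protein, so expression of the genes was not measured.

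The value given throughout is the percent of a gene's body, from its start to its end in RefSeq GRCh38.p14, that lay inside the domains deposited for a library. Domain edges fall on a grid of 800 bp, and the smallest gap in any list is 4000 bp. A value of 0% means that no domain was listed there, and it gives no level of the mark. A gene was called gained or lost when every library of a genotype lay above every library of the other, with 25 percentage points or more between the closest values. An exact permutation test of 2 libraries against 2 cannot go below p = 0.333, so the limma fit over all genes with varying values is given beside the calls. Domains held 47891128 to 70708137 reads per H3K27me3 library and 16530587 to 23579864 reads per H3K9me3 library. The class II region, from the left end of HLA-DRA to the right end of HLA-DPB1 (hg38, chr6:32439887-33089696), is highly polymorphic and has close gene copies. The reference holds 1 haplotype of it, and the treatment of reads with several matches is not stated, so values over the HLA-DR and HLA-DQ genes are uncertain.

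The promoter windows below are shown because the largest changes met the start sites of HLA-DPA1 and HLA-DPB1 or lay beside that of HLA-DQB1, while HLA-DRB1 had no domain. RefSeq windows of 300 bases, 250 before the start and 50 after it, were found for 8 of the 10 genes. Capitals mark the X box core CNAGNNNNNNATG, followed within 25 bases by the Y box ATTGG, as found on the gene's strand. They are printed 5′ to 3′ from GRCh38.p14: HLA-DPA1 from chr6:33080699-33080998 (minus strand), HLA-DPB1 from chr6:33075740-33076039 (plus strand), HLA-DQB1 from chr6:32666608-32666907 and HLA-DRB1 from chr6:32589799-32590098 (both minus strand).
HLA-DPA1: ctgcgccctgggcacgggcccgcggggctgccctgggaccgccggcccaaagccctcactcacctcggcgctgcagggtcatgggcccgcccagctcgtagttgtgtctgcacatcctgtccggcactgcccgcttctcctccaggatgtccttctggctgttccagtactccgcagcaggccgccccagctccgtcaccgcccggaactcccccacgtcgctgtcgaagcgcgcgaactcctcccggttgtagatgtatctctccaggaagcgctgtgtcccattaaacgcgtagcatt
HLA-DPB1: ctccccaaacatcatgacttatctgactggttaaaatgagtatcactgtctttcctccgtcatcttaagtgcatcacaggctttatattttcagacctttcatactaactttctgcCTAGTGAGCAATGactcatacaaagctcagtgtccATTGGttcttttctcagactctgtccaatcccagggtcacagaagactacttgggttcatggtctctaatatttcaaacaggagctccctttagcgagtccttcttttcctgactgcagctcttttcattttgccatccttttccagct
HLA-DQB1: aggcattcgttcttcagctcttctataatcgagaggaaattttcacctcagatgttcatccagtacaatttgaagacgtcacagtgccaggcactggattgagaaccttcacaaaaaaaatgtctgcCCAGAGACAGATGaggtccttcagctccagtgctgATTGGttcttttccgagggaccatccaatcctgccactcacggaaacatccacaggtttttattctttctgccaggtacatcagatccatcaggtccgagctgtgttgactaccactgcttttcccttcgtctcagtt
HLA-DRB1: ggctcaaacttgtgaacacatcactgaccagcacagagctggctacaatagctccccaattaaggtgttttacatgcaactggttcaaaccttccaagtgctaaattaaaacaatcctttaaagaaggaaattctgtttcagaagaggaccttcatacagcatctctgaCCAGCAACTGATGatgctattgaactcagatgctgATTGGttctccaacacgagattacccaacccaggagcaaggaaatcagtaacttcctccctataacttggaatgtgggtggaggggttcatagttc
With the start counted as base 0, the X core began at base -134 in HLA-DPB1, -123 in HLA-DQB1, -115 in HLA-DMA and -81 in HLA-DRB1, and 22 or 23 bases lay between it and the Y box. The ordered pair was found in these 4 of the 8 genes and, on either strand, in 71 of 35116 RefSeq windows (0.202%). The X core alone was in 9.04% of windows on either strand and the Y box alone in 34.6%. The pattern was written from knowledge of class II promoters, so its presence here is a description. Neither motif was found in either of the 2 RefSeq windows of HLA-DPA1, so the window shown, at its outer start, carries no capitals. That window lies within the body of HLA-DPB1. The search took exact matches only, so diverged boxes would be missed, and the result does not show that HLA-DPA1 lacks them.

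The 10 genes fell into classes that mostly held in every genotype. HLA-DRA, the HLA-DR alpha chain, was inside domains of both marks in every library. Its H3K27me3 values were 100% and 97.8% in SKO libraries, 100% and 100% in DKO libraries, and 100% and 100% in sgControl libraries. Its H3K9me3 value was 100% in all 6 libraries. Only 276 of the 19974 genes (1.38%) were at least 95% covered in all 12 libraries of both marks, and HLA-DRA was the 1 member among them. HLA-DRB1 (the HLA-DR beta chain), HLA-DMA and HLA-DMB (the peptide exchange factor), CIITA and CD74 were at 0% in all 12 libraries. That pattern was common: 10530 genes (52.7%) had it. HLA-DQA1, HLA-DPA1 and HLA-DPB1 had intermediate and variable values, and HLA-DQB1 was at 0% except in 1 library. The plot of members by library shows these classes.

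**Figure D1:**
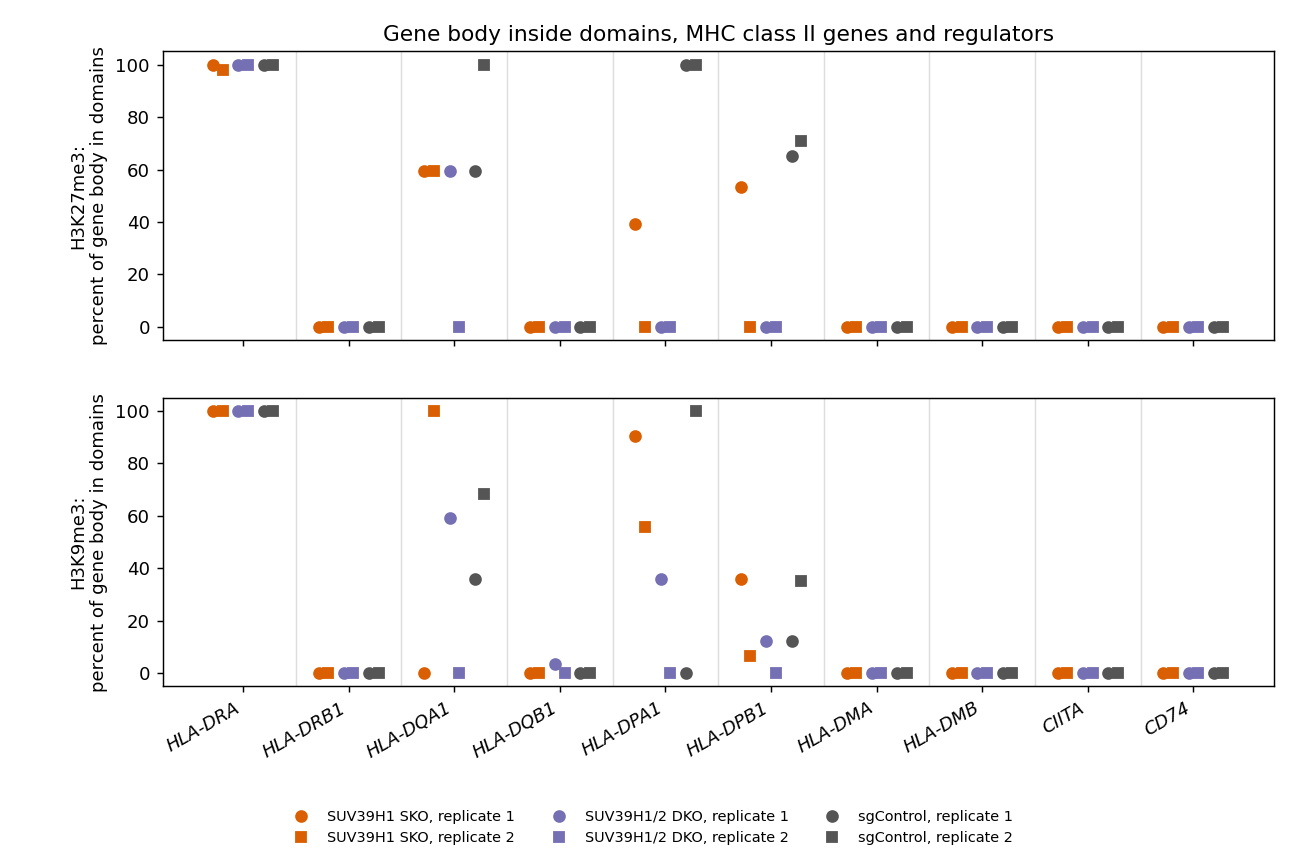
Percent of each gene body inside H3K27me3 domains (upper panel) and H3K9me3 domains (lower panel); each point is 1 library, coloured by genotype, with circles for replicate 1 and squares for replicate 2. HLA-DRA lies at or near 100% throughout, 5 genes lie at 0% throughout, and for H3K27me3 both sgControl points of HLA-DPA1 lie at 100%, above every knockout point.

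The HLA-DP genes held the change in H3K27me3. HLA-DPA1, the HLA-DP alpha chain, was covered to 39.2% and 0% in SKO libraries, 0% and 0% in DKO libraries, and 100% and 100% in sgControl libraries. The groups did not overlap in either knockout. HLA-DPA1 fell by 80.4 percentage points in SKO cells (limma SE 14.8, adjusted p = 0.0209), with means of 19.6 ± 27.7% in SKO cells and 100 ± 0% in sgControl cells (SD, n = 2 each). In DKO cells it fell by 100 points (SE 14.8, limma adjusted p = 0.0111). HLA-DPA1 had no spread within DKO or sgControl libraries, so that SE came from the SKO pair and the other varying genes. The p-value for DKO therefore measures no spread between the libraries compared. HLA-DPB1, the HLA-DP beta chain, was covered to 53.3% and 0% in SKO libraries, 0% and 0% in DKO libraries, and 65.0% and 70.8% in sgControl libraries. In DKO cells HLA-DPB1 met the call rule at 67.9 points below sgControl in the means, 0 ± 0% against 67.9 ± 4.13% (SD, n = 2 each). The limma adjusted p for that difference was 0.0696 (SE 20.3), which missed 0.05. Here too the SE came mostly from the SKO libraries, whose SD was 37.7%. In SKO cells the nearest HLA-DPB1 libraries differed by -11.7 points, and the call rule was not met.

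In SKO against sgControl 1 member was called lost, where the rule called 3.15% of all genes lost and 19.5% of those covered enough in sgControl to be called lost, among which were 4 members. In DKO against sgControl 2 members were called lost, against 3.0% of all genes and 18.6% of those that could be called. HLA-DPA1 and HLA-DPB1 overlap on opposite strands and shared the same domain, so they are not independent cases. No member gained H3K27me3, where 3.37% of genes in SKO cells and 3.82% in DKO cells did. In DKO against SKO 0 members were called in either direction, against 0.726% of genes gained and 0.365% lost. Limma was fitted only to HLA-DRA, HLA-DQA1, HLA-DPA1 and HLA-DPB1, the members whose H3K27me3 values varied. In DKO against SKO 0 of them passed, and 0 had an unadjusted p under 0.05. By limma 24.4% of the 3790 varying genes fell and 21.7% rose in SKO cells, 24.2% and 23.6% in DKO cells, and 2.85% and 5.04% in DKO against SKO. The median difference over the 10 genes was 0 points in each H3K27me3 comparison, as it was over all genes.

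The domain behind these values was short and of middle rank. In sgControl cells it ran over chr6:33062401-33082400 in replicate 1 and chr6:33063201-33084000 in replicate 2, and by the caller's score it ranked at the 51.3 and 52.1 percentile of its library's list. The part lost in both DKO libraries, and present in both sgControl libraries, was chr6:33063201-33082400, or 19.2 kb. It holds all of HLA-DPA1 and the start of HLA-DPB1. In SKO cells the longest part lost in both libraries was chr6:33063201-33074400, or 11.2 kb. The difference came from SKO replicate 1, which kept a domain of 7.2 kb over the start site of HLA-DPB1 and the outer of the 2 RefSeq start sites of HLA-DPA1 (chr6:33074401-33081600), at the 7.82 percentile of its list. That library also held the most reads in H3K27me3 domains of all 6, 70708137, and the part of depth in this difference was not tested. When all H3K27me3 lists were brought to equal covered length, HLA-DPA1 was at 0% in all 4 knockout libraries and at 100% in both sgControl libraries. That setting drops the lowest-scoring domains of the longer lists. The knockout lists covered more of the genome, so it could lower knockout coverage far more than sgControl coverage.

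H3K27me3 also drew back on both sides of the HLA-DP pair. On the right, the next domain began at chr6:33088001 in SKO replicate 1, at 33096801 in SKO replicate 2 and at 33098401 in DKO replicate 1, and none was listed in DKO replicate 2. In sgControl libraries it began at 33087201 and 33088001, left of the right end of HLA-DPB1. Its right end stood at 33112000 in the 3 knockout libraries that had it and at 33122400 in both sgControl libraries. The 10.4 kb between these ends, over the pseudogene HLA-DPB2, were lost in both SKO and DKO cells. Left of HLA-DPA1, chr6:33014401-33025600 was lost in SKO cells and chr6:33014401-33024800 in DKO cells, splitting an H3K27me3 block that reaches left to HLA-DOA.

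H3K9me3 at the HLA-DP genes did not follow genotype. HLA-DPA1 was covered to 90.4% and 55.8% in SKO libraries, 36.0% and 0% in DKO libraries, and 0% and 100% in sgControl libraries. The sgControl replicates thus span the whole range, and neither knockout was separated from them (limma adjusted p = 0.724 for SKO and 0.609 for DKO). HLA-DPB1 was covered to 35.8% and 6.54% in SKO libraries, 12.4% and 0% in DKO libraries, and 12.4% and 35.1% in sgControl libraries, and these also overlap. Values at HLA-DPA1 depended on the right end of an H3K9me3 domain that approached the gene from the left in every library. That end lay at chr6:33079200 and 33073600 in SKO libraries, 33070400 and 33058400 in DKO libraries, and 33059200 and 33080800 in sgControl libraries. HLA-DPA1 had less H3K9me3 coverage in both DKO libraries than in both SKO libraries. The closest values differed by -19.8 points, short of the 25 points of the call rule (limma adjusted p = 0.559).

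A second H3K9me3 domain stood at the right end of HLA-DPB1 in all 6 libraries. It began between chr6:33088001 and 33091201 and was 24.8 and 24.8 kb long in SKO libraries, 26.4 and 27.2 kb in DKO libraries, and 29.6 and 21.6 kb in sgControl libraries. It ranked at the 85.9 and 85.6 percentile of its list in SKO libraries, 89.3 and 86.5 in DKO libraries, and 81.1 and 76.9 in sgControl libraries. In WT cells SETDB1 peaks lay inside its span in both libraries. The strongest were chr6:33099545-33101414, with a −log10 p of 26.2, and chr6:33099975-33101406, with 26.1.

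**Figure D2:**
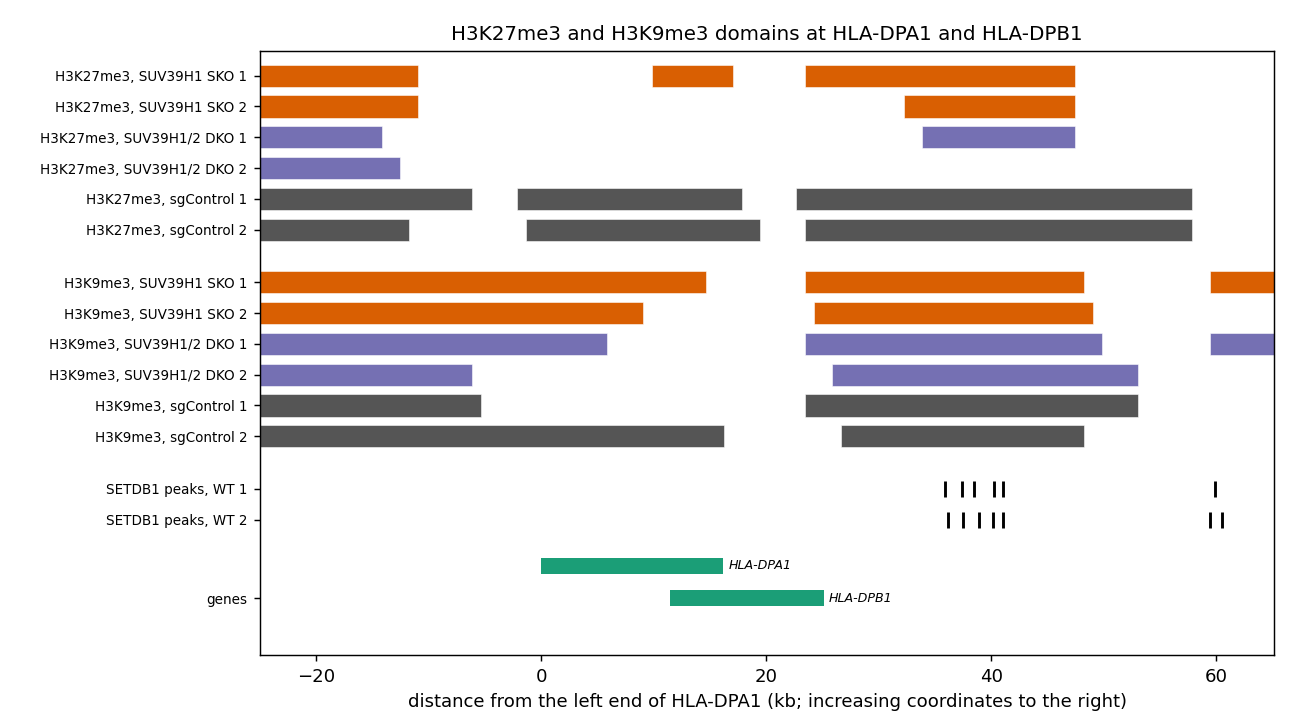
Domains around HLA-DPA1 and HLA-DPB1 against distance in kb from the left end of HLA-DPA1; bars are domains of 1 library per row, ticks are SETDB1 peaks in WT cells, and bars are cut at the edges of the plot. H3K27me3 bars cover HLA-DPA1 whole in both sgControl rows, in part in SKO replicate 1 and nowhere in the other 3 knockout rows, while the H3K9me3 bar right of HLA-DPB1 is present in all 6 rows.

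At the HLA-DQ genes the clearest difference was outside the gene bodies. HLA-DQB1, the HLA-DQ beta chain, reads leftwards, and its 5′ end is at chr6:32666657. Upstream of it an H3K9me3 domain was listed in all 4 knockout libraries and in neither sgControl library. It ran over chr6:32667201-32682400 in SKO replicate 1, chr6:32667201-32684800 in SKO replicate 2 and DKO replicate 2, and chr6:32666401-32684800 in DKO replicate 1. The segment gained in both libraries was 15.2 kb in SKO cells and 17.6 kb in DKO cells, with its near edge 0.544 kb from the gene's 5′ end in 3 of the 4 libraries. In DKO replicate 1 the domain began inside the gene, at -0.256 kb from the 5′ end, and covered 3.57% of HLA-DQB1 and its whole promoter window. All 5 other libraries had 0% H3K9me3 over the gene body.

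The upstream domain ranked at the 72.1 and 64.5 percentile of its list in SKO libraries and at the 82.6 and 68.9 percentile in DKO libraries. The 15.2 kb segment was picked as covered in both SKO libraries and neither sgControl library, so those values were set by the choice. Both DKO libraries covered it to 100% as well. It stayed at 100% in the 4 knockout libraries at equal covered length. The same held with the lower-scoring 50% of domains set aside, as the ranks above imply. Those settings only remove domains, so sgControl libraries could not rise from 0%. Over the genome, 3.03% of 800 bp windows gained H3K9me3 in both SKO libraries and 3.02% in both DKO libraries, so gains of this kind were not rare. The segment was noticed in these data, and it was given no test.

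H3K27me3 changed in the opposite direction on the same stretch. In both sgControl libraries an H3K27me3 domain began at chr6:32674401, 7.74 kb upstream of HLA-DQB1. In the knockouts its left end stood further away, at 32682401 and 32689601 in SKO libraries and at 32695201 and 32682401 in DKO libraries. Over chr6:32674401-32682400, or 8 kb, both SKO libraries and both DKO libraries had lost H3K27me3 and gained H3K9me3. Windows that did both made up 0.0432% of the genome in SKO against sgControl and 0.0384% in DKO against sgControl. Of the 814 windows of the class II region they were 1.23% in SKO cells and 1.47% in DKO cells. In SKO cells all of these windows lay in the 8 kb stretch, and in DKO cells in that stretch and chr6:32792001-32793600, or 1.6 kb. The stretch was noticed in these data, so these shares of windows were given no test. In DKO against SKO there were 0 such windows in the region, against 0.00750% of all.

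SETDB1 peaks of WT cells lay within the span of the upstream domain. They were listed at chr6:32670997-32672295 in replicate 1, with a 6.34-fold enrichment and a −log10 p of 15.2, and at chr6:32671184-32672298 in replicate 2, with a 7.72-fold enrichment and a −log10 p of 17.3. These are the authors' values for single peaks. The peaks began 4.34 and 4.53 kb upstream of HLA-DQB1, in the 7.74 kb that held no domain of either mark in sgControl cells. SETDB1 was not profiled in knockout cells, so whether its binding there differs between genotypes was not measured.

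HLA-DQA1, the HLA-DQ alpha chain, had an H3K27me3 domain over its start in 5 of 6 libraries. It was covered to 59.3% and 59.3% in SKO libraries, 59.3% and 0% in DKO libraries, and 59.3% and 100% in sgControl libraries. The repeated value reflects a shared right edge at chr6:32648000. This was a weak domain, at the 17.4 and 22.2 percentile in SKO libraries, 19.6 in the DKO library that had it, and 31.5 and 28.9 in sgControl libraries, and once the lower-scoring 50% of each list was set aside all 6 libraries were at 0%. At equal covered length HLA-DQA1 was at 0% in both SKO and both DKO libraries and at 59.3% and 100% in sgControl libraries, which met the call rule for loss in both knockouts. That setting removes low-scoring H3K27me3 domains mostly from the knockout lists. H3K9me3 over HLA-DQA1 was 0% and 100% in SKO libraries, 59.3% and 0% in DKO libraries, and 35.8% and 68.3% in sgControl libraries. With the lists as deposited, neither mark met the call rule or passed limma at HLA-DQA1, so its H3K27me3 call depends on how the lists are scaled.

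**Figure D3:**
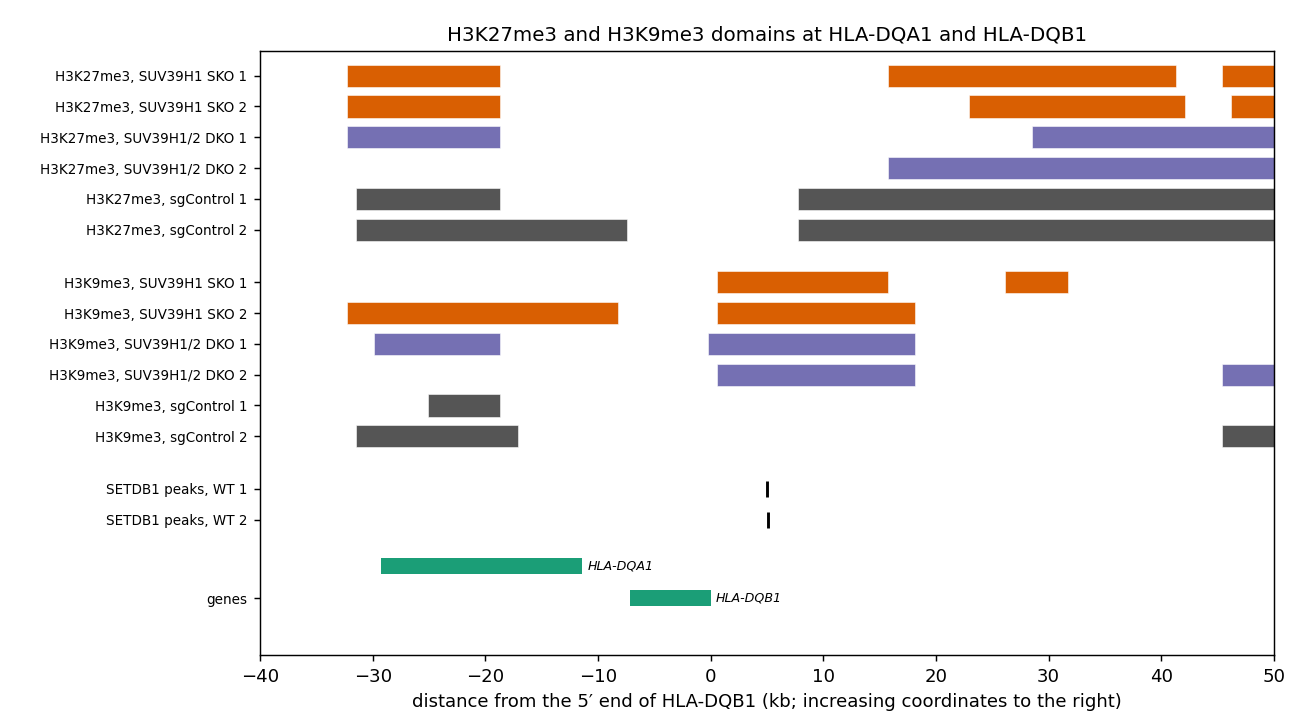
Domains around HLA-DQA1 and HLA-DQB1 against distance in kb from the 5′ end of HLA-DQB1; bars are domains of 1 library per row, ticks are SETDB1 peaks in WT cells, and bars are cut at the edges of the plot. An H3K9me3 bar stands right of HLA-DQB1 in the 4 knockout rows and in neither sgControl row, and the H3K27me3 bar further right begins at 7.74 kb in both sgControl rows and further out in every knockout row.

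For H3K9me3, 0 members were called gained or lost in any of the 3 comparisons of genotypes. In SKO against sgControl the rule called 4.11% of all genes gained and 4.50% lost. The shares were 3.84% gained and 4.23% lost in DKO against sgControl, and 1.46% gained and 1.34% lost in DKO against SKO. Limma passed 18.3% of 7904 varying genes as higher and 13.2% as lower in SKO cells, 15.2% and 12.9% in DKO cells, and 2.63% and 3.42% in DKO against SKO. Of the members it was fitted only to HLA-DQA1, HLA-DQB1, HLA-DPA1 and HLA-DPB1, since the others did not vary. Of these 0 passed, and 0 had an unadjusted p under 0.05 in any of these comparisons. The SE was 44.3 points for HLA-DQA1 and 41.0 for HLA-DPA1, so limma could hardly have passed either. Of the 10 genes only HLA-DRA and HLA-DQA1 were covered enough in both sgControl libraries to be called lost.

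The edge of the H3K27me3 block over HLA-DRA also differed between libraries. In both sgControl libraries and in DKO replicate 1 the gene lay in a block that continued left past BTNL2. In SKO replicate 1 and DKO replicate 2 a gap of 4 kb at chr6:32435201-32439200 cut the block just left of HLA-DRA. In SKO replicate 2 the gap lay at chr6:32436001-32440000 and took in the first bases of the gene, hence its 97.8%. A gap of 4 kb is the smallest the lists hold, so these are breaks at the limit of the domain calls.

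HLA-DRB1, HLA-DMA and HLA-DMB lay in stretches without a domain of either mark in all 12 libraries. The stretch with HLA-DRB1 and HLA-DRB5 was chr6:32496001-32634400, or 138.4 kb. The stretch with HLA-DMB, HLA-DMA and BRD2 was chr6:32878401-32988000, or 109.6 kb. Another, chr6:32819201-32864800, or 45.6 kb, holds TAP2, PSMB8, TAP1 and PSMB9, which serve the class I pathway. Between these stretches lay the blocks of both marks shown in the map of the region, some present in every library and some, as described above, in some genotypes only. The HLA-DRB stretch is the most polymorphic of the region, and whether reads could be placed there was not tested.

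**Figure D4:**
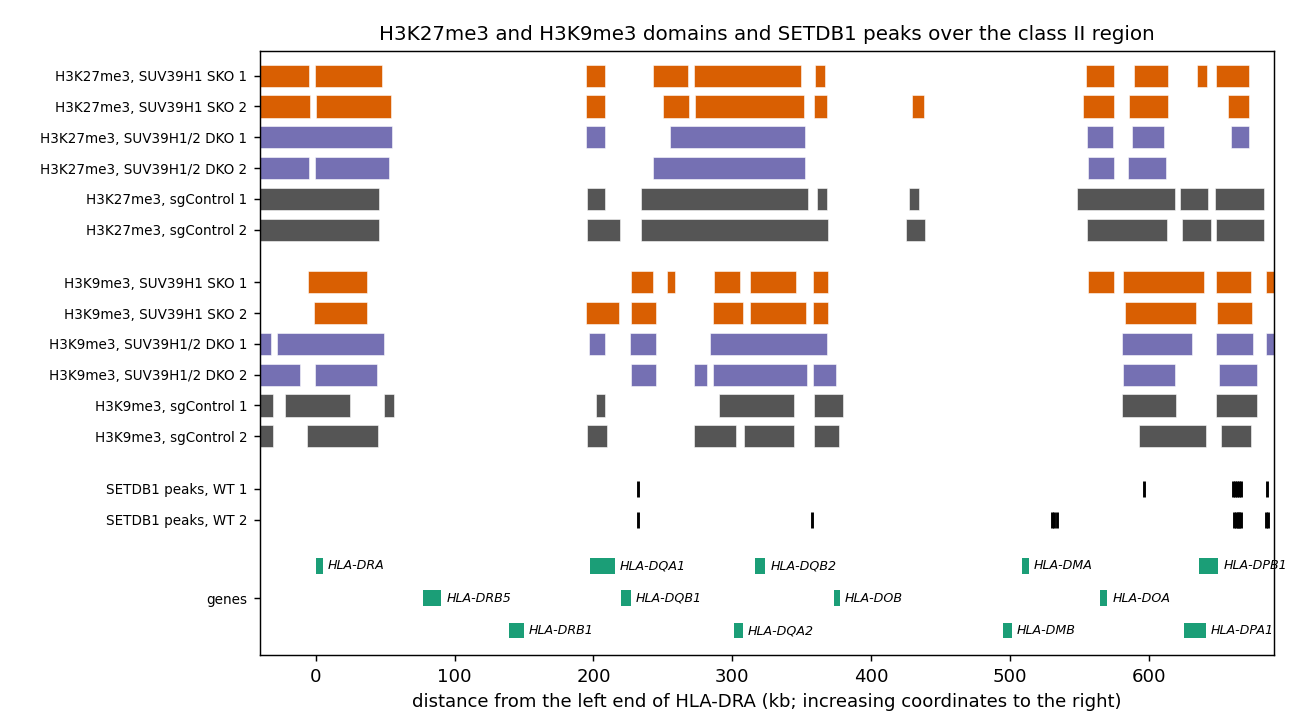
H3K27me3 domains, H3K9me3 domains and WT SETDB1 peaks over the class II region against distance in kb from the left end of HLA-DRA; each row is 1 library, and bars are cut at the edges of the plot. Blocks over HLA-DRA and over HLA-DQB2 stand in every row of both marks, with empty stretches over HLA-DRB1 and over HLA-DMB and HLA-DMA.

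Over the class II region as a whole, coverage differed from sgControl in the opposite direction to the genome. The difference was clear for H3K27me3, and for H3K9me3 it was close to the spread between sgControl libraries. H3K27me3 domains covered 35.4 ± 0.935% of the region in SKO cells, 32.0 ± 0.0871% in DKO cells and 44.9 ± 1.31% in sgControl cells (SD, n = 2 each). Over all chromosomes they covered 39.8 ± 0.238% in SKO cells, 40.0 ± 0.636% in DKO cells and 35.0 ± 0.115% in sgControl cells. The region was 9.50 points below sgControl in SKO cells, a difference of -9.50 with an SE of 1.14, and DKO cells differed from sgControl by -12.9 points with an SE of 0.925. In SKO cells 6.02% of the region's windows lost H3K27me3, against 2.40% of all windows, and in DKO cells 8.85% against 2.52%. Gains were fewer in the region, at 0.491% in SKO cells and 1.11% in DKO cells, against 7.16% and 7.55% of all windows. In DKO against SKO 1.47% of the region's windows lost H3K27me3 and 0.614% gained it, against 0.785% and 0.857% of all windows.

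H3K9me3 domains covered 31.0 ± 0.435% of the region in SKO cells, 31.4 ± 2.27% in DKO cells and 26.6 ± 4.17% in sgControl cells (SD, n = 2 each). Over all chromosomes they covered 24.9 ± 0.0511% in SKO cells, 26.1 ± 0.166% in DKO cells and 33.9 ± 0.728% in sgControl cells. Every knockout library lay above both sgControl libraries in the region, but the closest values were 29.8% in DKO replicate 2 and 29.6% in sgControl replicate 2. Both knockout means were above sgControl in the region, by 4.38 points in SKO cells (SE 2.96) and 4.80 points in DKO cells (SE 3.36), which is close to the spread between sgControl libraries. Without sgControl replicate 1 these differences were 1.43 and 1.85 points, and without sgControl replicate 2 they were 7.33 and 7.75 points. Losses in the region were few, at 1.97% of its windows in SKO cells and 0.369% in DKO cells, against 8.73% and 7.85% of all windows. Gains took 2.70% of the region's windows in SKO cells and 4.30% in DKO cells, against 3.03% and 3.02% of all windows. In DKO against SKO 0.491% of the region's windows lost H3K9me3 and 2.09% gained it, against 1.87% and 2.12% of all windows. Neighbouring windows share domains, so these shares carry no test.

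**Figure D5:**
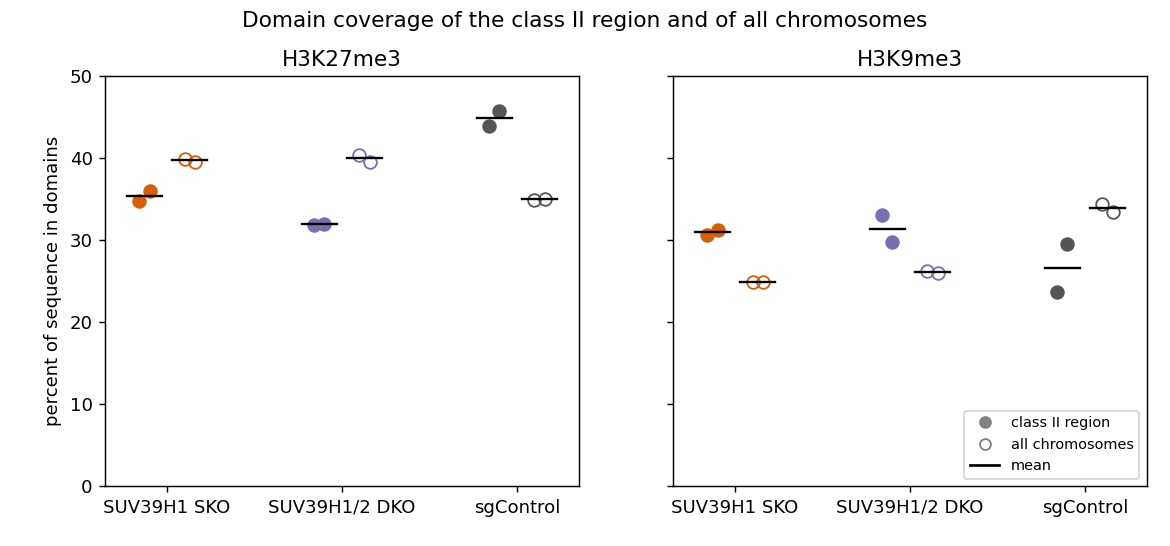
Percent of sequence inside H3K27me3 domains (left) and H3K9me3 domains (right) for the class II region (filled points) and all chromosomes (open points); each point is 1 library and each line the mean of 2. For H3K27me3 the knockout libraries lie below sgControl in the region and above it over all chromosomes, and for H3K9me3 they lie below sgControl over all chromosomes only.

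CIITA and CD74 lie outside the class II region and outside any domain. CIITA spans chr16:10866206-10943021, and the nearest H3K27me3 domain was 148 to 626 kb away over the 6 libraries and the nearest H3K9me3 domain 145 to 270 kb away. CD74 spans chr5:150401639-150412910, with the nearest H3K27me3 domain at 467 to 926 kb and the nearest H3K9me3 domain at 322 to 391 kb. The 5 genes within 250 kb of CIITA and the 10 within 250 kb of CD74 were at 0% for both marks in all libraries. Neither the coactivator nor the invariant chain thus had a listed domain in sgControl cells.

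With a SETDB1 peak in both WT libraries, in the gene body or within 2 kb of it, 0 of the 10 genes were found, against 20.6% of all genes. CIITA had 1 peak in replicate 2 only, at chr16:10870703-10871277. Within 10 kb HLA-DQB1 joined, through the upstream peaks described above.

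The 5 close relatives of the members shared the blocks of the region. HLA-DQA2, HLA-DQB2 and HLA-DOA were covered to 100% by H3K27me3 in all 6 libraries, and HLA-DRB5 and HLA-DOB were at 0%. HLA-DOB, the beta chain of the inhibitor of HLA-DM, met the call rule for H3K9me3 loss in both knockouts. It was covered to 0% and 0% in SKO libraries, 0% and 38.6% in DKO libraries, and 100% and 95.2% in sgControl libraries (limma adjusted p = 0.0168 for SKO and 0.0296 for DKO). It was the only relative called for either mark.

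The factors that bind class II promoters gave calls for H3K9me3 only. All 9 such genes were at 0% for H3K27me3 in every library. For H3K9me3, 2 of the 9 were called gained in SKO cells and 1 in DKO cells, against 4.11% and 3.84% of all genes. Called lost were 0, against 4.50% and 4.23% of all genes. The list is short, and its counts were given no test. NFYA, a subunit of the Y box factor NF-Y, was covered to 40.8% and 70.7% in SKO libraries, 35.3% and 89.7% in DKO libraries, and 0% and 0% in sgControl libraries. NFYA met the call rule in both knockouts, but its limma adjusted p was 0.161 for SKO and 0.139 for DKO. NFYC, another NF-Y subunit, was covered to 30.4% and 38.9% in SKO libraries, 23.03% and 33.4% in DKO libraries, and 0% and 0% in sgControl libraries (limma adjusted p = 0.0164 for SKO). Limma also passed 2 genes short of the 25 points: ATF1 in both knockouts (adjusted p = 0.00872 for SKO and 0.00549 for DKO) and CREB1 in SKO cells (0.0431), both higher. NFYC passed limma in DKO cells too (adjusted p = 0.0281). RFX5, an X box factor, was at 0% throughout.

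Genes that lead from the interferon gamma receptor to CIITA had no H3K27me3 domain in any library. Of 10 genes for antigen processing, which include cathepsins and the ligase MARCHF1, 0 were called for either mark in any comparison. LGMN, a lysosomal protease, was short of the 25 points with H3K27me3 coverage of 0% and 0% in SKO libraries, 0% and 0% in DKO libraries, and 16.1% and 12.5% in sgControl libraries (limma adjusted p = 0.00351 for SKO and 0.00336 for DKO). The background rates for these lists are those given above for all genes, and the median difference of each list was 0 points.

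Marker genes of the cell types were looked at in the same way. All 13 myeloid markers and all 8 housekeeping genes were at 0% for H3K27me3 in all 6 libraries, and the housekeeping genes also for H3K9me3. Of 7 B lymphoid markers, which mark cells with constitutive class II expression, only POU2AF1 was called for H3K27me3, gained in SKO cells. Of 8 T lymphoid markers, GATA3 and BCL11B lost H3K27me3 in both knockouts, and for H3K9me3 in SKO cells CD8A gained and TRAT1 lost. The myeloid marker CD33 met the call rule for H3K9me3 gain in DKO cells, with a limma adjusted p of 0.146, where 3.84% of all genes gained. CSF2RA, another myeloid marker, was short of the 25 points but higher by limma in both knockouts (adjusted p = 0.0433 for SKO and 0.0260 for DKO). It was covered to 17.0% and 17.0% in SKO libraries, 26.9% and 17.0% in DKO libraries, and 0% and 0% in sgControl libraries. The part of these shifts in the HLA-DP result was not tested. Domains do not show which genes are expressed, so the cell type itself was not tested.

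Among genes on other chromosomes, the H3K27me3 pattern most like that of HLA-DPA1 over the 6 libraries was that of OR10H1, an olfactory receptor gene, with a mean absolute difference of 0.154 percentage points. For HLA-DRA the nearest was SESTD1, at 0.0404 points. HLA-DPA1's pattern of H3K9me3 had no close match, since the nearest gene, OOSP2, differed by 10.9 points.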

How the data were processed

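H3K9me3 and H3K27me3 domains were deposited per library by the authors as epic2 lists, with read counts per domain and the caller's score, per the file headers. SETDB1 peaks were deposited with a fold enrichment and a −log10 p-value per peak, per the file headers. Trim Galore 0.6.10, FastQC 0.12.1, deepTools 3.5.6 and SICER 0.052 are named in the submitters' processing notes, with builds hg38 and dm6. The aligner, read filters, handling of reads with several matches and the SETDB1 peak caller are not stated in those notes or the labels. Drosophila chromatin was added as a spike-in, per the labels' protocols, but the deposited lists hold no scaled level, so only extent was compared. The 4 input samples were not analysed here, and the knockouts themselves cannot be checked with domain lists.

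Groups and replicate numbers came from the sample titles. Percent of gene body in domains was computed in Python 3.11.15 (numpy 2.4.6, pandas 2.3.3) for 19974 RefSeq genes. The call rule and limma 3.58.1 (R 4.3.3; all 6 libraries of a mark, Benjamini-Hochberg over all varying genes, 3790 for H3K27me3 and 7904 for H3K9me3) were tested on simulated data. All 10 members are named, and list genes where called. Members and lists were chosen with earlier results of these data known. Part of the results on the interferon gamma genes is not reported here. Alternatives were equal covered length, the upper 50% of domains by score, leaving out domains of 1 window, thresholds of 10 and 50 points, limma with and without a replicate block, and leaving out each library.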

Additional observations from a re-analysis of the deposited data

How the results depend on the processing

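Over the 17 results, 165 of 193 alternatives gave a value within the limits set (counts within 1.5 times the count reported, differences within 1 SD of libraries), 28 moved past them and 0 reversed a sign. Most results are counts, which cannot change sign, and the 5 members at 0% in all 12 libraries could hardly enter one. The tally therefore says little on how firm the results are. Members that lost H3K27me3 in SKO cells numbered 1, but 3 at equal covered length (HLA-DQA1 and HLA-DPB1 joined) and 2 with the higher-scoring 50% of domains or at 10 points (HLA-DPB1 joined). Leaving out libraries gave 1 to 2: without SKO replicate 1 HLA-DPB1 joined, and without sgControl replicate 1 HLA-DQA1. In DKO cells the 2 lost were 3, with HLA-DQA1, at equal covered length and without DKO replicate 1 or sgControl replicate 1, and 1 (HLA-DPA1) by limma or by limma with a replicate block. Lost in DKO against SKO were 0 to 2 on leaving out libraries: 2, HLA-DPA1 and HLA-DPB1, without SKO replicate 2, and 1, HLA-DQA1, without DKO replicate 1.

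For H3K9me3, leaving out libraries gave 0 to 1 gained in SKO against sgControl (HLA-DQA1 without SKO replicate 1, HLA-DPA1 without sgControl replicate 2), and 0 to 1 lost there (HLA-DQA1 without SKO replicate 2). It gave 0 to 1 lost in DKO against sgControl (HLA-DQA1 without DKO replicate 1, HLA-DPA1 without sgControl replicate 1). It gave 0 to 1 lost in DKO against SKO (HLA-DQA1 without SKO replicate 1, HLA-DPA1 without SKO replicate 2 or DKO replicate 1), and a threshold of 10 points also gave 1 there, HLA-DPA1.

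Equal covered length removes low-scoring domains, mostly from knockout lists for H3K27me3 and from sgControl lists for H3K9me3. It thus favours lower knockout coverage for H3K27me3 and lower sgControl coverage for H3K9me3. The region's H3K27me3 difference moved to -17.4 points at equal covered length and -12.4 with the upper 50% of domains in SKO cells, and to -16.8 and -11.8 in DKO cells. Its H3K9me3 difference moved to 11.9 at equal covered length in SKO cells and 10.7 under either setting in DKO cells. It rested on the sgControl libraries: without sgControl replicate 1 it was 1.43 in SKO cells and 1.85 in DKO cells, and without sgControl replicate 2 it was 7.33 and 7.75. Leaving out knockout libraries gave 4.07 to 4.69 in SKO cells and 3.19 to 6.41 in DKO cells. With 100 kb on either side it was 1.55 in SKO cells and 7.81 in DKO cells. Members with a SETDB1 peak were 0, but 1 within 10 kb (HLA-DQB1), 1 with a peak in either library (CIITA), and 0 to 1 on leaving out 1 library (CIITA without replicate 1). The cause of these shifts was not tested. Same-numbered libraries did not deviate together (correlations across genes -0.013 to 0.050), and the replicate block changed no other count over the members. The number of libraries, 2 per genotype, and the 800 bp grid limit every value.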

Other observations

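HLA-G, a class I gene outside the class II region, held a contrast between the knockouts. Its H3K27me3 coverage was 0% and 0% in SKO libraries, 100% and 100% in DKO libraries, and 100% and 100% in sgControl libraries (limma adjusted p = 4.05e-08 for SKO against sgControl and 4.44e-07 for DKO against SKO). HLA-G had no spread within any genotype for H3K27me3, so its limma SE of 0.245 points was borrowed from the other varying genes. Those p-values therefore measure no spread between libraries at HLA-G. Its H3K9me3 coverage was 0% and 0% in SKO libraries, 0% and 86.3% in DKO libraries, and 68.8% and 100% in sgControl libraries, and met the call rule for loss in SKO cells (limma adjusted p = 0.154). Of 14 class I genes HLA-G was the only 1 called for either mark, and it has close copies, so its values are uncertain. The shares called over all genes are those given above beside the members.

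Among 7 genes of costimulation and CD74 partners, CD40 lost H3K27me3 in SKO cells, with 64.6% and 71.5% in SKO libraries, 64.6% and 78.5% in DKO libraries, and 100% and 100% in sgControl libraries (limma adjusted p = 0.0207 for SKO and 0.0268 for DKO, which did not meet the call rule). CD44, a surface partner of CD74, gained H3K9me3 in DKO cells, with 25.7% and 29.2% in DKO libraries and 0% and 0% in sgControl libraries (limma adjusted p = 0.00892). In SKO libraries CD44 was at 9.44% and 16.3%, short of the 25 points but higher by limma (adjusted p = 0.0482). CD86 met the call rule for H3K9me3 in SKO cells, with 48.9% and 48.9% in SKO libraries and 9.02% and 22.4% in sgControl libraries, but its limma adjusted p was 0.169. In DKO libraries CD86 was at 43.1% and 7.81%, which overlapped sgControl. CD80 had H3K9me3 coverage of 32.1% and 30.9% in SKO libraries, 0% and 0% in DKO libraries, and 0% and 7.97% in sgControl libraries. SKO cells were above sgControl by limma (adjusted p = 0.00940) though short of the 25 points, and DKO against SKO met the call rule (limma adjusted p = 0.0228). For these genes too, the shares called over all genes are those given beside the members.

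BTNL2, the gene left of HLA-DRA, met the call rule for H3K9me3 loss in SKO cells. Its coverage was 30.8% and 0% in SKO libraries, 100% and 100% in DKO libraries, and 100% and 100% in sgControl libraries, and DKO against SKO was itself called (limma adjusted p = 0.0434; 0.0138 for SKO against sgControl).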
